A study of Mus musculus with 12 samples.

Results

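The genes described are 6 mouse genes, chosen by symbol from the 31053 genes listed in the count matrices: Tsc22d3, Fkbp5, Sgk1, Ddit4 and Klf9, which are widely used as readouts of glucocorticoid hormone action, and Txnip, a sensor of glucose and redox state. They were measured in CD45-positive, CD11b-positive cells sorted from whole brains of 12 male C57BL/6J mice at about postnatal day 90, a gate that takes mainly microglia, the resident macrophages of the brain. The brains were either Dounce homogenized in the cold (DNC) or digested with enzymes at a warm temperature (ENZ), and the animals were perfused and processed either without inhibitors (NONE) or with a cocktail that blocks new RNA and protein synthesis (INHIB; actinomycin D, triptolide and anisomycin). Crossing method and inhibitor gave 4 groups, ENZ-NONE, ENZ-INHIB, DNC-NONE and DNC-INHIB, of 3 libraries from 1 animal each, spread over 2 labelled batches. All animals were perfused under anaesthesia and all suspensions passed a density gradient and a sort, so those steps are common to the 4 groups.

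Glucocorticoids such as corticosterone bind the glucocorticoid receptor, which is held in the cytoplasm by heat shock protein chaperones, moves to the nucleus and binds paired DNA elements near its target genes. In macrophages this pathway is best known for restraining inflammation. Txnip is regulated mainly by the glucose-responsive factors MondoA and ChREBP and binds thioredoxin. The study asked which preparation changes gene expression in these cells after death.

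The deposited matrices held 28426 cells and 2118143 to 3654465 unique molecular identifiers (UMIs, each standing for 1 captured transcript) per library. A cell was kept with 500 genes or more, 1000 UMIs or more and no more than 10% of UMIs from mitochondrial genes, which left 18830 cells (66.2%), 855 to 2185 per library, with a median of 1153 to 1572 UMIs per cell. Any pair of libraries shared 2 to 16 cell barcodes. The 10 microglia markers summed to 34122 to 40133 CPM, the usual scaling of UMI counts to a common library total, across the 12 libraries, so the label of the sort held in each of them. The neutrophil marker list (6 of 6 genes detected) stood apart in DNC-NONE replicates 2 and 3, at 1600.4 and 3933 CPM against 0 to 509.6 in the other 10 libraries, and each fitted result below was also computed with microglia-like cells only. A sum over sorted cells cannot tell a change in the makeup of the cells from a change in each cell.

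Of the 6 genes, 5 passed the filter on low counts and were tested among 9884 genes. Klf9, a transcription factor induced by glucocorticoids and thyroid hormone, did not pass. A gene was called at an adjusted p under 0.05 and a log2 fold change beyond 0.58 in either direction, by edgeR's quasi-likelihood test with Benjamini-Hochberg adjustment over all 9884 genes, and this test gives every adjusted p below that comes from the sums.

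Txnip was the only one of the 5 tested genes that was called in any comparison. Txnip codes for thioredoxin-interacting protein, an arrestin-like protein that limits glucose uptake and inhibits thioredoxin. The gene (ENSMUSG00000038393) lies at chr3:96557957-96561883 on the plus strand of GRCm38 and overlaps Gm15441 on the other strand, for which 41 UMIs were counted in all. In ENZ-NONE replicates 4, 5 and 6 its level was 235, 236 and 330.4 CPM. DNC-NONE replicates 1, 2 and 3 held 182, 139 and 176 CPM, DNC-INHIB replicates 4, 5 and 6 held 168, 176 and 166, and ENZ-INHIB replicates 1, 2 and 3 held 173, 181 and 184. Every ENZ-NONE library thus lay above the highest of the other 9, and those 9 lay close together.

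The fitted Txnip level was higher in ENZ-NONE than in DNC-NONE by 0.73 on the log2 scale (SE 0.13, edgeR adjusted p 0.00634), a 1.66-fold difference. In that comparison 47 of the 9884 genes were called (0.476%). Against DNC-INHIB the difference was 0.70 (SE 0.13, edgeR adjusted p 0.00464), where 72 genes (0.728%) were called, and against ENZ-INHIB it was 0.62 (SE 0.13, edgeR adjusted p 0.0323), where 28 genes (0.283%) were called. These 3 comparisons share the ENZ-NONE libraries and are not independent of each other. Txnip is 1 of the 25 genes of the study's own activation list for brain myeloid cells, which was drawn from these samples, so its direction is not independent evidence for that list.

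ENZ-NONE replicate 6 carried much of the size of the difference. Without it the log2 difference fell to 0.51 against DNC-NONE (adjusted p 0.0114) and 0.49 against DNC-INHIB (adjusted p 0.0146), both under the fold minimum, and to 0.40 against ENZ-INHIB (adjusted p 0.149). The call against ENZ-INHIB was also lost without any 1 of the ENZ-INHIB or DNC-INHIB libraries or DNC-NONE replicate 3, with log2 differences of 0.57 to 0.65 and adjusted p of 0.0534 to 0.235, and after thinning every cell to 1000 UMIs (0.62, adjusted p 0.102). The batch 1 libraries of ENZ-NONE averaged 235 CPM of Txnip, where those of ENZ-INHIB had 173, of DNC-INHIB 168 and of DNC-NONE 161. In batch 2 the same 4 values were 330.4, 183, 171 and 176. A group had only 1 library in either batch 1 or batch 2. With microglia-like cells only, the 3 differences were 0.73, 0.73 and 0.63.

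Between the other groups Txnip differed little. DNC-NONE minus DNC-INHIB was -0.02 (95% interval -0.30 to 0.25), ENZ-INHIB minus DNC-INHIB was 0.09 (-0.18 to 0.36) and ENZ-INHIB minus DNC-NONE was 0.11 (-0.16 to 0.39). The effect of leaving out inhibitors was larger in ENZ than in DNC by 0.64 on the log2 scale (SE 0.18), with an unadjusted p of 0.00226 that did not pass adjustment (edgeR adjusted p 0.929). For that difference of effects 6 genes (0.0607%) were called.

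**Figure D1:**
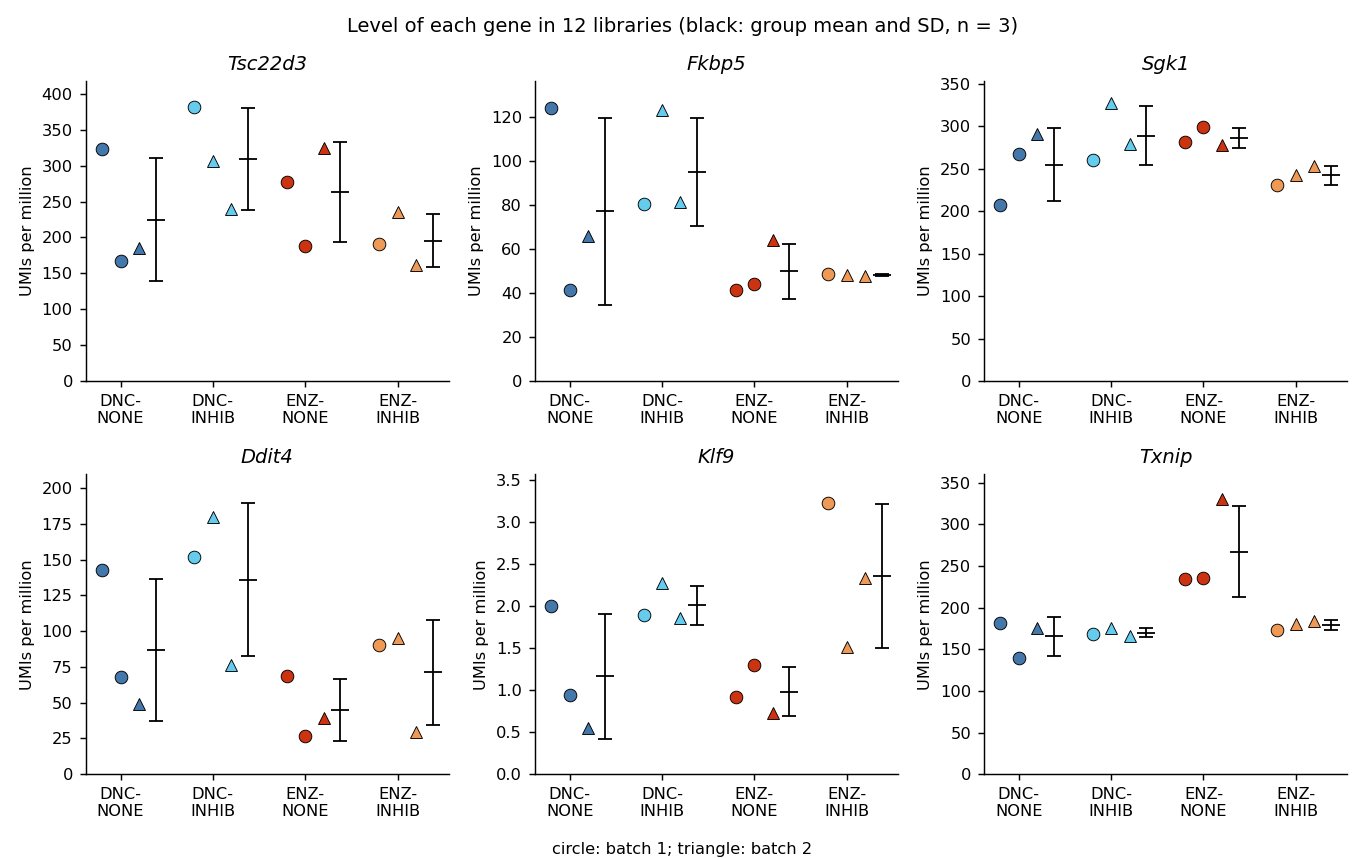
CPM (vertical axis) of the 6 genes in each of 12 libraries, colored by preparation, with circles for batch 1 and triangles for batch 2 and black bars for the group mean and SD (n = 3). The 3 ENZ-NONE libraries lie above the other 9 for Txnip, while Tsc22d3, Fkbp5 and Ddit4 spread widely inside groups and Klf9 stays under 3.3.

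The 4 tested glucocorticoid-responsive genes gave 0 calls in the 7 comparisons, by edgeR and by DESeq2. Among the 5 tested genes, Txnip included, 10 of 35 gene and comparison pairs (28.6%) had an unadjusted p under 0.05, beside 7.01% of pairs over all genes tested. These pairs include every Txnip comparison with ENZ-NONE and the Txnip difference of inhibitor effects. The 7 comparisons share libraries, so the pairs are not independent of each other. DNC-NONE against DNC-INHIB gave 0 called genes of 9884 (0%), with 444 at an unadjusted p under 0.05, and ENZ-INHIB gave 20 (0.202%) against DNC-INHIB and 17 (0.172%) against DNC-NONE. The wide intervals of 3 of these genes, described below, limit what the sums can show.

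Tsc22d3 codes for GILZ, a leucine zipper protein that carries part of the anti-inflammatory action of glucocorticoids. It lies on the minus strand at chrX:140539528-140600659 (ENSMUSG00000031431). Its levels were 323, 167 and 185 CPM in DNC-NONE replicates 1, 2 and 3, and 382, 307 and 239.7 in DNC-INHIB replicates 4, 5 and 6. ENZ-NONE replicates 4, 5 and 6 held 277, 188 and 325 CPM, and ENZ-INHIB replicates 1, 2 and 3 held 191, 235 and 161. The 4 groups overlapped, and within a group the highest library exceeded the lowest 1.46 to 1.93 times. The fitted differences ran from -0.65 for ENZ-INHIB against DNC-INHIB (95% interval -1.38 to 0.08) to 0.48 for ENZ-NONE against ENZ-INHIB (-0.25 to 1.21), with SEs of 0.31 or 0.32.

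Fkbp5 codes for FKBP51, a co-chaperone that lowers the affinity of the receptor for its hormone and is itself induced by it, which forms a short feedback loop. It lies on the minus strand at chr17:28399094-28517527 (ENSMUSG00000024222) and overlaps 4 other annotated genes, none of which is listed in the matrices. DNC-NONE replicates 1, 2 and 3 held 124, 41.4 and 66 CPM, and DNC-INHIB replicates 4, 5 and 6 held 80.3, 123 and 81.3. ENZ-NONE replicates 4, 5 and 6 held 41.3, 44.2 and 64.1 CPM. The 3 ENZ-INHIB libraries, at 48.5, 48.2 and 47.9 CPM, differed by less than counting error. All 6 digested brains were at or under 64.1 CPM, and 4 of the 6 homogenized brains were at or above 80.3, but DNC-NONE replicates 2 and 3 overlapped or nearly overlapped the digested range.

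Fkbp5 was lower in ENZ-INHIB than in DNC-INHIB by a log2 difference of -0.97 (95% interval -1.81 to -0.13, unadjusted p 0.0284, edgeR adjusted p 0.523) and in ENZ-NONE than in DNC-INHIB by -0.86 (-1.70 to -0.01, unadjusted p 0.0473, edgeR adjusted p 0.52). Neither was called. Against DNC-NONE the differences were -0.76 for ENZ-INHIB and -0.65 for ENZ-NONE, and without DNC-NONE replicate 1 they were -0.20 and -0.09. ENZ-NONE minus ENZ-INHIB was 0.11 (-0.80 to 1.02).

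Ddit4 codes for REDD1, a brake on the growth kinase complex mTORC1 that responds to glucocorticoids, hypoxia and energy stress. It lies on the minus strand at chr10:59949669-59951834 (ENSMUSG00000020108). Its levels were 143, 67.7 and 49.4 CPM in DNC-NONE replicates 1, 2 and 3, and 152, 179.8 and 76.4 in DNC-INHIB replicates 4, 5 and 6. ENZ-NONE replicates 4, 5 and 6 held 68.4, 26.7 and 39.6 CPM, and ENZ-INHIB replicates 1, 2 and 3 held 90, 95 and 29.2. Over the 12 libraries Ddit4 ranged 6.74-fold, and in each group the highest library exceeded the lowest 2.35 to 3.25 times.

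ENZ-NONE had less Ddit4 than DNC-INHIB by a log2 difference of -1.51 (95% interval -2.88 to -0.14, unadjusted p 0.0343, edgeR adjusted p 0.469), and no library of ENZ-NONE reached the lowest of DNC-INHIB. This difference was not called. Against DNC-NONE the ENZ-NONE difference was -0.94 (-2.38 to 0.51) and against ENZ-INHIB it was -0.59 (-2.04 to 0.86). The effect of leaving out inhibitors was alike in both methods as fitted, with a difference of -0.01, but its interval ran from -1.92 to 1.89, so these data set no narrow limit on it.

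Sgk1 codes for a serum- and glucocorticoid-induced kinase of the AKT family that acts on ion transport and cell survival. It lies on the plus strand at chr10:21882184-21999903 (ENSMUSG00000019970). DNC-NONE replicates 1, 2 and 3 held 207, 267 and 290.3 CPM, and DNC-INHIB replicates 4, 5 and 6 held 260.0, 327 and 279. ENZ-NONE replicates 4, 5 and 6 held 281, 299 and 278 CPM, and ENZ-INHIB replicates 1, 2 and 3 held 231, 242 and 253. ENZ-NONE and ENZ-INHIB did not overlap, and the fitted log2 difference between them was 0.27 (95% interval 0.04 to 0.50, unadjusted p 0.021, edgeR adjusted p 0.93), which was not called. ENZ-INHIB minus DNC-INHIB was -0.25 (-0.47 to -0.02, unadjusted p 0.0336). The effect of leaving out inhibitors differed between methods by 0.46 (0.14 to 0.78, unadjusted p 0.00686, edgeR adjusted p 1). All 6 intervals between pairs of groups stayed within -0.47 to 0.50, a narrow range beside those of Ddit4.

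Klf9 (ENSMUSG00000033863, chr19:23141226-23168134, plus strand) was counted 45 times over all kept cells. The DNC-NONE libraries held 5, 1 and 1 UMIs and those of ENZ-NONE 2, 2 and 2. With inhibitors, DNC-INHIB libraries held 4, 6 and 6 and ENZ-INHIB libraries 6, 4 and 6. That corresponds to 0.555 to 3.23 CPM. The libraries without inhibitors held 1 to 5 UMIs and those with inhibitors 4 to 6, so the ranges overlapped, and no difference could be shown at this depth.

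**Figure D2:**
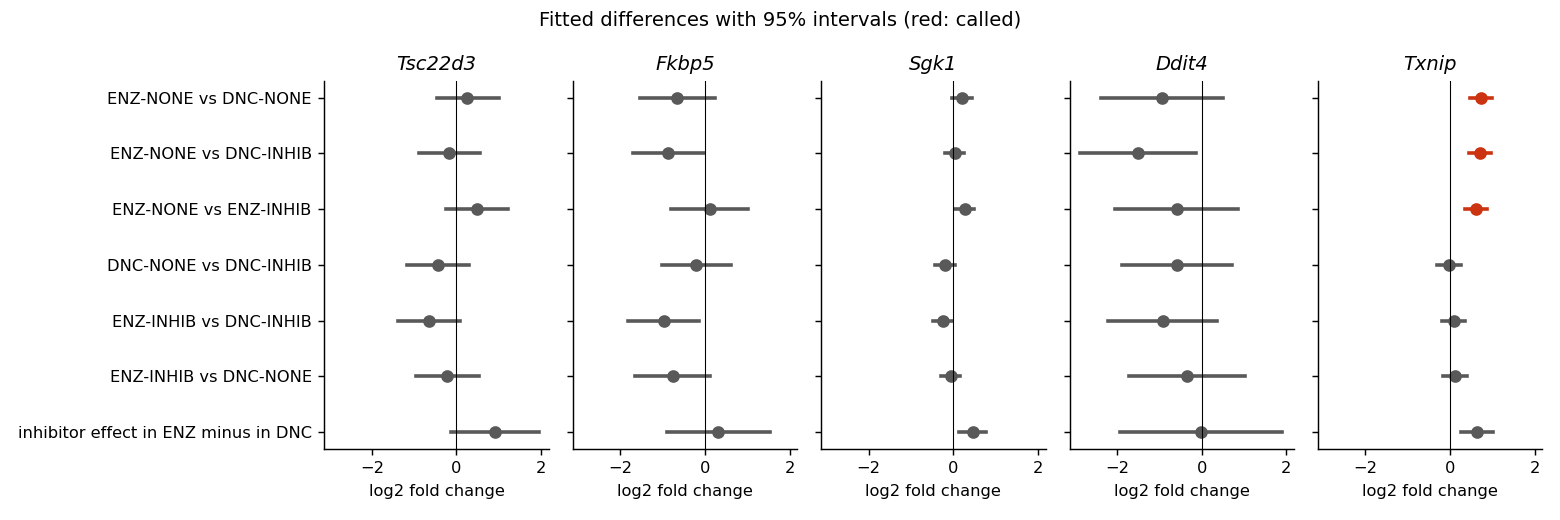
Log2 fold changes (horizontal axis) with 95% intervals for the 5 tested genes in 7 comparisons (rows), from 1 edgeR fit over 12 libraries, with called differences in red. Only Txnip was called, in the 3 comparisons that involve ENZ-NONE, and the Ddit4 intervals are the widest, reaching from -2.88 to 1.89.

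RefSeq (GRCm38.p6) gives 13 promoters for the 6 genes, each 300 bases long from 250 before the start of a transcript. They were searched on both strands for the paired receptor element, read here as GNACA and TGTNC with any 3 bases between them, which 156 of all 32851 promoters hold (0.475%). It was found in 2 of the 13, a promoter of Sgk1 and that of Txnip, at positions -188 and -172 from the start. The 250 bases before the start are shown for these 2, since they hold the paired element, with the element and 1 base on either side in capitals. The Sgk1 promoter, of a shorter transcript inside the gene, is chr10:21993640-21993889 on the plus strand and the Txnip promoter is chr3:96557707-96557956 on the plus strand.
Sgk1: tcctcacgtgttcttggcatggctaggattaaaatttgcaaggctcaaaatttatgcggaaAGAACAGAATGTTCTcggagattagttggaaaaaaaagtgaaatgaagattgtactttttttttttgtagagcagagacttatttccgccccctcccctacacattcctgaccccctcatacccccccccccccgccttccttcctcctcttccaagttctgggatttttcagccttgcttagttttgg
Txnip: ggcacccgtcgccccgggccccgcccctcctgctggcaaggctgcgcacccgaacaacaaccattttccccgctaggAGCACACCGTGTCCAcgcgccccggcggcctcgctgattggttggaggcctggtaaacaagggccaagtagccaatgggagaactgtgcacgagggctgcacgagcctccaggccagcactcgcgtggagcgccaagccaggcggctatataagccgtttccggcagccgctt
The single arm TGTTCT, which overlaps the paired element in Sgk1, was found in 4 of the 13 promoters (Sgk1 and Tsc22d3) and in 6233 of all promoters (19%). CACGTG, the exact form of the E-box in the element read by MondoA and ChREBP, was found in 2 of the 13 (Fkbp5 and Sgk1). It was found in 2349 of all promoters (7.15%). Inexact forms were not searched, so this search cannot tell whether the Txnip promoter holds that element. These are matches of letters in a short window and say nothing of binding.

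Within a preparation, Ddit4, Fkbp5 and Tsc22d3 varied between animals far more than most genes of the same level, and Sgk1 and Txnip did not. Each animal is 1 library and the main fit had no batch term. Differences between the animals, their processing and the batches within a group are therefore not told apart. The biological coefficient of variation (BCV), edgeR's estimate of the spread between libraries of a group beyond counting error, was 0.492 for Ddit4, where the trend over genes of the same level was 0.0975. That is a ratio of 5.05, which 52 of 9884 genes exceeded (0.526%). For Fkbp5 the BCV was 0.31, a ratio of 3.32 that 107 genes exceeded (1.08%), and for Tsc22d3 it was 0.267, a ratio of 2.36 that 162 genes exceeded (1.64%). Sgk1 (0.11, ratio 0.98) and Txnip (0.12, ratio 1.07) varied about as much as other genes at their level. The median ratio over all genes tested was 0.90, and 2.15% of genes had a ratio of at least 2.

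Counting error was small beside this spread. In the 4 groups the CV of Ddit4 between animals was 39.3% to 57.1%, where counting alone gives 5.56% to 11.6%. For Tsc22d3 it was 19.1% to 37.9% against 3.55% to 5.73%. Fkbp5 varied by 24.8% in ENZ-NONE, 25.7% in DNC-INHIB and 55.2% in DNC-NONE but by 0.56% in ENZ-INHIB, which is under its counting error of 9.5%. Sgk1 varied by 16.8% in DNC-NONE and 12% in DNC-INHIB, beyond counting error (4.95% and 3.7%). In ENZ-NONE and ENZ-INHIB it varied by 3.92% and 4.71%, near counting error (4.13% and 4.25%). Txnip in turn varied by 2.93% and 3.3% in DNC-INHIB and ENZ-INHIB, within counting error (4.78% and 4.94%), by 14% in DNC-NONE and by 20.6% in ENZ-NONE. The groups in which Txnip varied beyond counting were those without inhibitors, although the spreads themselves were not tested against each other.

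**Figure D3:**
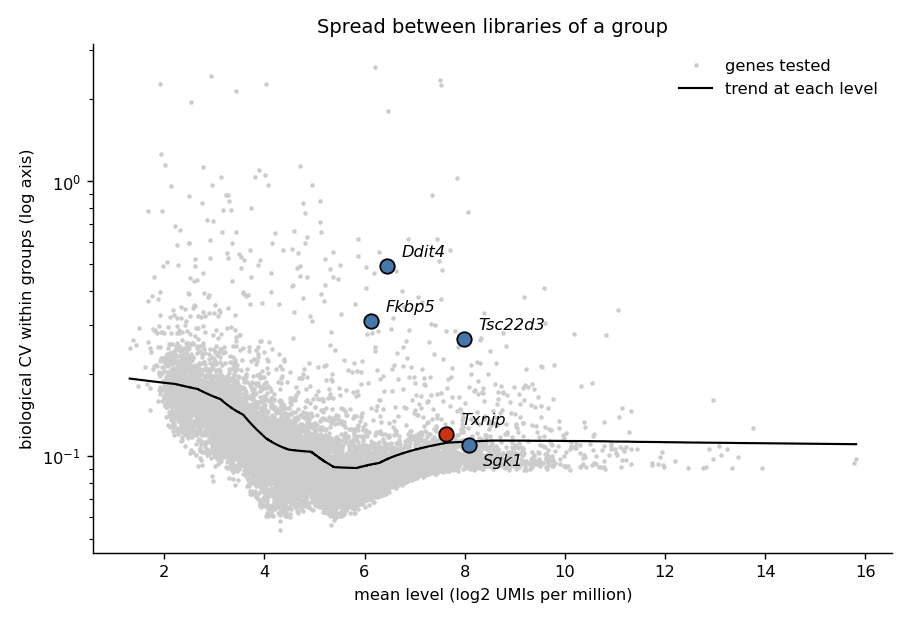
Biological coefficient of variation within groups (vertical log axis) against the mean level in log2 CPM (horizontal axis) for the 9884 genes tested, with the trend as a line. Ddit4 (0.492), Fkbp5 (0.31) and Tsc22d3 (0.267) lie well above the trend, and Sgk1 and Txnip lie on it.

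DNC-NONE replicate 1 had the highest level in its group of 5 of the 6 genes, and the lowest of Sgk1. Relative to the mean of its group on the log2 scale it was higher by 0.58 for Tsc22d3, 0.82 for Fkbp5, 0.86 for Ddit4 and 0.15 for Txnip, while Sgk1 was at -0.28. The same library had the most cells with the study's activation signature outside ENZ-NONE, described below, at 9.9% of its cells. In its thinned cells without that signature, Tsc22d3, Fkbp5, Ddit4 and Txnip were at 343, 129, 147 and 181 CPM. In all its thinned cells they were at 336, 126, 146 and 183 CPM. In batch 2, DNC-NONE was represented by replicate 3 alone. ENZ-INHIB replicate 3 was at -1.09 for Ddit4 but at -0.26 for Tsc22d3 and -0.01 for Fkbp5, so the genes did not always move together.

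Whether the genes varied together between animals was tested for all 15 pairs, with log2(CPM + 1) centred on the group mean and exact permutation of libraries within groups (two-sided). After adjustment over the 15 pairs, 0 passed, and 2 had an unadjusted p under 0.05. Tsc22d3 and Ddit4 had Pearson's r = 0.77 (exact permutation p 0.0193, adjusted 0.145) and Spearman's rho = 0.70 (exact permutation p 0.0386, adjusted 0.289). Fkbp5 and Txnip had r = 0.77 (exact permutation p 0.017, adjusted 0.145) and rho = 0.77 (exact permutation p 0.0216, adjusted 0.289). Without the 2 libraries farthest from the median of the first gene, r was 0.67 and 0.72. Centred on batch as well, r was 0.80 for both pairs (exact permutation p 0.0201 and 0.00463). Tsc22d3 and Fkbp5 had r = 0.65 (exact permutation p 0.136), and Ddit4 and Txnip had 0.05 (exact permutation p 0.844). Sgk1 had negative coefficients with each of the other 5 genes, from -0.66 with Tsc22d3 (exact permutation p 0.0926) to -0.19 with Txnip (exact permutation p 0.718). Without the 2 farthest libraries, DNC-NONE replicate 1 among them, the coefficient of Sgk1 turned to 0.34 with Fkbp5 and 0.14 with Klf9 and was -0.16 with Ddit4, so the signs with Fkbp5 and Klf9 rest on those libraries.

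The genes whose log2(CPM + 1) was most like each member over the 12 libraries, among tested genes with a mean of at least 50 CPM, are given as a description. For Txnip they were Ier5 (Pearson's r 0.98), Klf6 (0.95) and Ccl4 (0.94), an immediate early gene, a transcription factor and a chemokine. For Fkbp5 they were Ccnd3 (0.94), Cdk2ap2 (0.92) and Anapc16 (0.90), and for Tsc22d3 they were its relative Tsc22d2 (0.88), Gpr108 (0.84) and Chordc1 (0.83). Ddit4 was most like Trim8 (0.90), Mlph (0.89) and Nelfb (0.87), and Sgk1 most like Kif1bp (0.77), 0610040J01Rik (0.75) and B4galt4 (0.73). Klf9, from its few UMIs, was most like Dock10 (0.93), Foxn3 (0.85) and Specc1 (0.83). The lists of the 6 members had no gene in common. All points share library, depth and preparation.

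The share of cells in which a gene was seen was compared after thinning each cell to 1000 UMIs, so that depth per cell did not enter. Txnip was seen in 19%, 20.3% and 26.9% of cells in ENZ-NONE replicates 4, 5 and 6, and in 12.4% to 17% of cells in the other 9 libraries. ENZ-NONE averaged 22.1% ± 4.22 (SD, n = 3), and the other libraries together averaged 15.7% ± 1.38 (SD, n = 9). The difference of 6.35 percentage points gave p = 0.00909 in a two-sided exact permutation test, the smallest that 220 splits allow, and 0.164 after adjustment over the 18 tests of shares. At that smallest p a single test could not pass this adjustment. Within batch the exact permutation p was 0.0222, also the smallest that its 90 splits allow. Without thinning the difference was 7.89 points, and without ENZ-NONE replicate 6 it was 3.94 points.

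Among the other genes, Fkbp5 and Ddit4 were seen in fewer cells after digestion, without passing adjustment. Fkbp5 was seen in 4.58% ± 0.801 of cells in ENZ (SD, n = 6) and 8.07% ± 2.93 in DNC (SD, n = 6), which differ by -3.5 points (exact permutation p 0.0216, two-sided, adjusted p 0.195). With each library left out in turn the difference was -4.31 to -2.84 points, with an adjusted exact permutation p of up to 0.39. It passed adjustment only without DNC-NONE replicate 2, at -4.31 points (exact permutation p 0.00433, adjusted p 0.039). That library kept the fewest cells, 855 of 2513. With it left out, the Txnip share in NONE minus INHIB had the same exact permutation p and adjusted p. This p is the smallest that the splits of the remaining libraries allow, and neither test would have passed adjustment alone. Ddit4 was seen in 5.26% ± 2.8 of cells in ENZ (SD, n = 6) and 9.94% ± 4.37 in DNC (SD, n = 6), a difference of -4.69 points (exact permutation p 0.0563, adjusted p 0.262). Tsc22d3 ranged from 13.8% to 28.4% of cells and Sgk1 from 16.9% to 24.7% over the 12 libraries, and neither passed in any of the 3 contrasts. Of the 18 tests of shares, 0 passed adjustment and 2 had an unadjusted exact permutation p under 0.05. Klf9 was seen in 0% to 0.368% of cells, where the 0% is ENZ-INHIB replicate 2, whose 4 UMIs (0.239% of cells before thinning) were all lost in thinning. The background that free RNA gives was not estimated, since no cell type was set beforehand as lacking these transcripts. For Sgk1, the 60 cells of a cluster without a name, with Cd209a as leading gene, held 1 UMI (0% of its thinned cells) and monocyte-like cells were positive in 2.27%, against 21.7% of microglia-like cells.

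**Figure D4:**
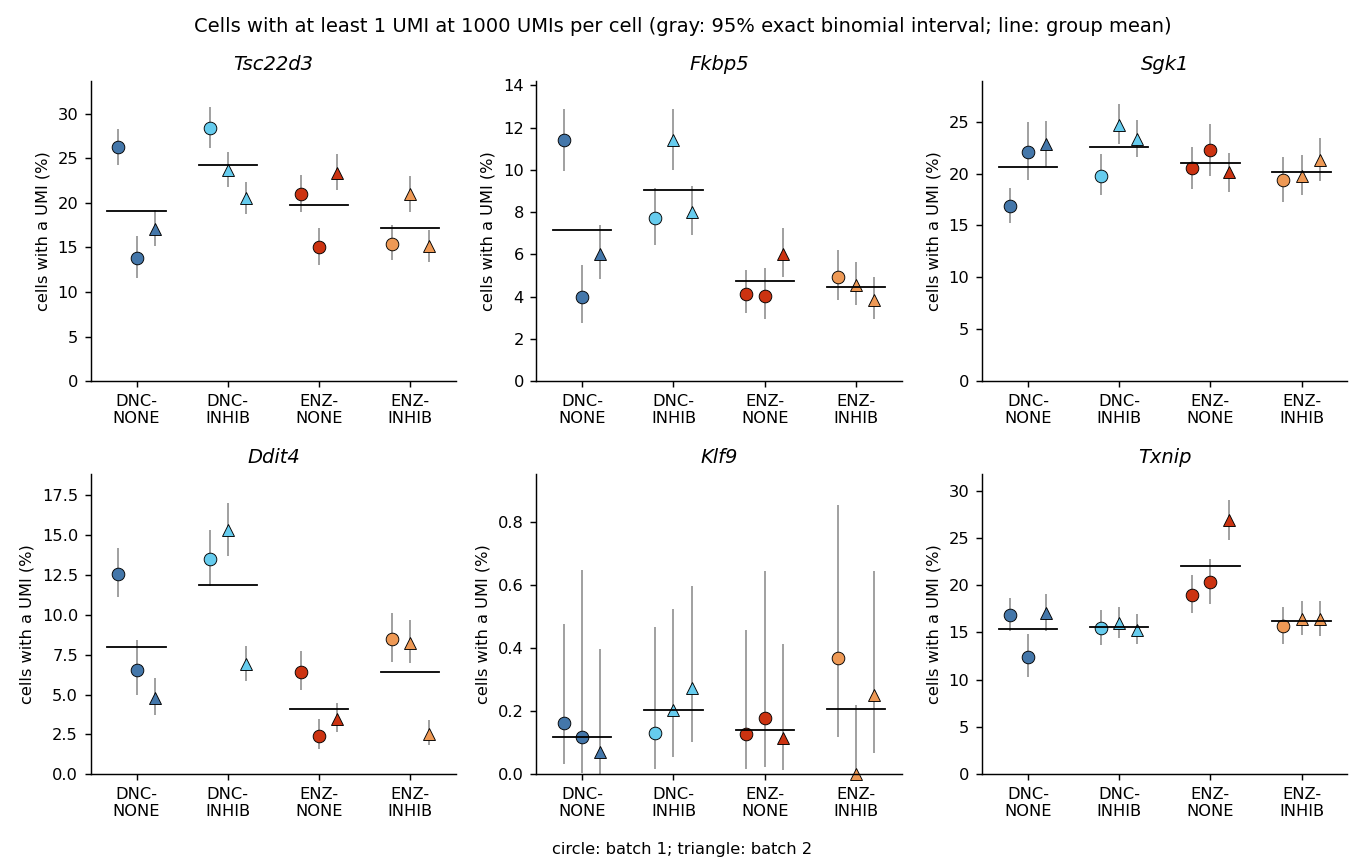
Percent of cells with at least 1 UMI of each gene after thinning to 1000 UMIs per cell (vertical axis), for 12 libraries in 4 groups, with 95% exact binomial intervals in gray and group means as lines. Txnip shares in ENZ-NONE run from 19% to 26.9%, above all other libraries, and Fkbp5 shares in ENZ libraries stay at or under 6.01%.

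Within the ENZ-NONE libraries, cells were split by the study's 19-gene activation list for brain cells, which holds immediate early and heat shock genes and none of the 6 genes here. A cell was counted as signature-positive with UMIs of at least 4 of the 19 genes after thinning. These were 28.2%, 27.7% and 58.4% of cells in ENZ-NONE replicates 4, 5 and 6, and 0.418% to 9.9% in the other 9 libraries. Tsc22d3 was 492, 323 and 431 CPM in the positive cells of the 3 libraries and 208, 136 and 187 CPM in the negative cells, a ratio of 2.37, 2.37 and 2.31. This ratio was nearly the same in each animal, while the Tsc22d3 sums of the group were not called against any other group.

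Sgk1 was also higher in signature-positive cells, at 388, 374 and 328 CPM against 224, 252 and 225 CPM. Txnip was 316, 303 and 388 CPM in the positive cells and 196, 216 and 282 CPM in the negative cells, a ratio of 1.61, 1.4 and 1.38. Ddit4 went the other way, at 49.7, 19.4 and 33.3 CPM in positive cells and 76.3, 27.2 and 46.7 CPM in negative cells, but these rest on 22, 6 and 34 UMIs in the positive cells. Fkbp5 hardly differed, with ratios of 0.986, 0.998 and 1.1. All cells of a library share their source, so these are descriptions of 3 animals with no test.

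The Txnip level of the signature-negative cells in ENZ-NONE was 196 to 282 CPM. In the signature-negative cells of each of the other 9 libraries it was lower, at 133 to 192 CPM. A signature-negative cell could still hold UMIs of some genes of the activation list, below the cutoff. Whether Txnip was also higher in ENZ-NONE cells with no UMI of that list was not tested. For Tsc22d3, the signature-negative cells of ENZ-NONE, at 136 to 208 CPM, lay in the range of the other libraries, 157 to 380.5 CPM, or just below it. Sgk1 in the negative cells, at 224 to 252 CPM, lay within the range of the other 9 libraries, 218 to 322 CPM.

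**Figure D5:**
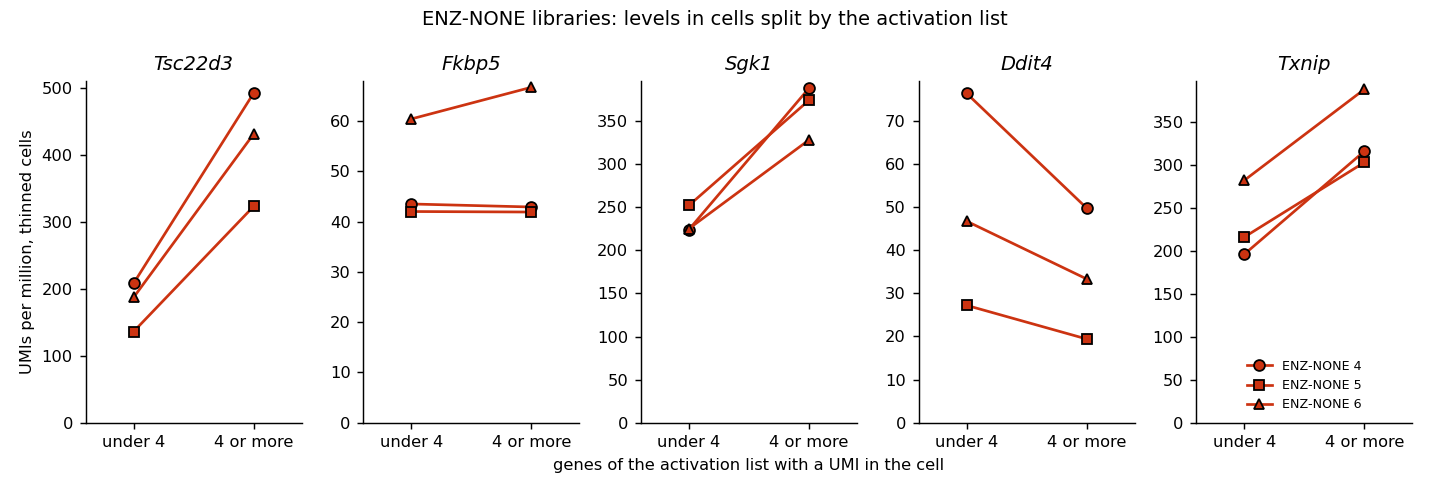
Levels in CPM of thinned cells (vertical axes) in ENZ-NONE replicates 4, 5 and 6, for cells with under 4 and with 4 or more genes of the 19-gene activation list. Tsc22d3, Sgk1 and Txnip are higher and Ddit4 is lower in the cells with 4 or more genes in all 3 libraries, and Fkbp5 is nearly level.

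Cells were clustered without the 6 genes and without the study's activation lists, so those genes did not enter the clustering directly. Genes that vary with them could still enter it. The microglia-like clusters held 17966 of the 18830 cells, and 311 cells were border macrophage-like and 132 monocyte-like, names that rest on fixed marker lists. The border macrophage-like cells were 2 clusters, 210 cells led by the antigen presentation genes H2-Eb1 and Cd74, with 2 border macrophage markers among its 10 leading genes, and 101 cells led by Pf4 and Mrc1, with 6. The monocyte-like cluster was led by S100a8, which is on the neutrophil list, with 3 monocyte markers among its 10 leading genes. No cluster was named for neutrophils, and whether the monocyte-like cluster held some was not tested. Tsc22d3 was 242 CPM in microglia-like cells (95% counting interval 236 to 248), 708 in border macrophage-like cells (637 to 784) and 588 in monocyte-like cells (497 to 689.9). In the clusters of 210 and 101 cells it was 633 and 874 CPM. Its level in border macrophage-like cells exceeded that in microglia-like cells in 12 of 12 libraries. Sgk1 was the reverse, with 276 CPM in microglia-like cells and 63.3 in border macrophage-like cells (43.6 to 88.9), and the border macrophage-like level was the higher in 0 of 12 libraries. Txnip was 199 CPM in microglia-like and 230.2 in border macrophage-like cells (191 to 275), where the 2 clusters differed, at 184 (142 to 234) and 332 (249.7 to 434). Fkbp5 and Ddit4 were 71.9 and 89.2 CPM in microglia-like cells and 48 and 49.9 in border macrophage-like cells, the latter on 25 and 26 UMIs. These cell classes differ in depth and number, and doublets were not removed.

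Among the 7 microglia-like clusters, Ddit4 ran from 32 to 116 CPM. It was lowest in the cluster of 1073 cells led by Adamts1, Fos and Dusp1, of which 66.2% came from ENZ-NONE replicate 6, and there Tsc22d3 and Txnip were both at 348 CPM when pooled over libraries. Library by library, this cluster lay above the other microglia-like cells in 6 of 12 for Tsc22d3, 8 of 12 for Txnip and 1 of 12 for Ddit4. In the other 6 microglia-like clusters Tsc22d3 was 135 to 257 CPM and Txnip 117 to 206 CPM. The cluster of 4255 cells had 112 CPM of Ddit4, above the rest of the microglia-like cells in 11 of 12 libraries.

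Transcripts of the receptor and its chaperones were counted in these cells. Nr3c1, which codes for the glucocorticoid receptor, averaged 168 CPM and was not called in any comparison, with group means of 158 to 185 CPM. Nr3c2, the mineralocorticoid receptor, and Hsd11b1, which regenerates active hormone, had 51 and 10 UMIs in all and were not tested. Of the 9 genes on this list 7 were tested, and 1 was called by edgeR, Hsp90aa1, the stress-inducible HSP90 chaperone. It averaged 442 CPM in ENZ-NONE and 118 to 152 CPM in the other groups, with log2 differences of 1.94 from DNC-NONE, 1.79 from ENZ-INHIB and 1.59 from DNC-INHIB (edgeR adjusted p 0.000872, 0.00132 and 0.00151), and the effect of leaving out inhibitors was larger in ENZ than in DNC by 2.15 (edgeR adjusted p 0.0151). It is also on the study's 25-gene list, which was drawn from these samples. Its constitutive partner Hsp90ab1 averaged 902 CPM in ENZ-NONE and 492 to 689.6 in the other groups. It was not called by edgeR, but DESeq2 called it against DNC-NONE, against ENZ-INHIB and for the difference of inhibitor effects. The co-chaperone Fkbp4 averaged 152 to 173 CPM. Of the gene and comparison pairs on this list, 9 of 49 (18.4%) had an unadjusted edgeR p under 0.05, beside 7.01% over all genes tested. These pairs include the comparisons in which Hsp90aa1 was called.

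Of 22 other genes known to respond to glucocorticoids, 15 were tested. Dusp1, a phosphatase that ends MAP kinase signalling, was called higher in ENZ-NONE against all 3 other groups, with a mean of 644 CPM there and 5.75 to 7.41 CPM in the others (log2 differences 6.30, 6.83 and 6.55). Zfp36, which destabilizes cytokine mRNAs, averaged 381 CPM in ENZ-NONE and 37.6 to 53 CPM in the others and was called against DNC-INHIB and ENZ-INHIB (3.25 and 3.40, edgeR adjusted p 0.0205 and 0.0343) but not DNC-NONE (2.83, edgeR adjusted p 0.059), where DESeq2 called it. Both are also immediate early genes and are on the 19-gene list. The other 13 tested genes were not called in any comparison, among them Cebpb (424 to 751 CPM by group), Mertk (202 to 222 CPM) and Mt1 (162 to 180.5 CPM). Anxa1 and Lcn2 averaged 41.2 and 26.9 CPM in DNC-NONE and at most 10.9 and 4.49 CPM elsewhere, and DNC-NONE held the 2 libraries with the most neutrophil markers, whose part in this was not tested. These were picked after their values were seen. The median log2 difference of the 15 genes, Dusp1 and Zfp36 included, was 0.10, 0.21 and 0.56 in the 3 comparisons with ENZ-NONE, beside 0.00, 0.01 and -0.00 over all genes. On this list 16 of 105 gene and comparison pairs (15.2%) had an unadjusted edgeR p under 0.05, beside 7.01% of pairs over all genes tested. These pairs include the comparisons in which Dusp1 and Zfp36 were called, and pairs that share libraries are not independent.

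None of the 10 genes around Txnip was called in the 7 comparisons, by edgeR or DESeq2, and 6 of 70 gene and comparison pairs (8.57%) had an unadjusted p under 0.05, near the 7.01% of all genes. They include Mlxipl, which codes for ChREBP and averaged 146 to 167 CPM by group, Txn1, the thioredoxin that Txnip binds (51.1 to 55.8 CPM), Slc2a1, a glucose transporter (31.2 to 38.5 CPM), and Nlrp3, an inflammasome sensor (41 to 53.3 CPM). The 8 tested genes of the mTORC1 brake list, with Rheb (179 to 202 CPM), Sesn1 (85.9 to 91.7 CPM), Rptor (55.7 to 63.3 CPM) and Tsc1 (20.2 to 23.5 CPM), gave 0 calls by either tool and 3 of 56 pairs (5.36%) with an unadjusted p under 0.05. The 9 tested close relatives of the members, 3 of which are also on the lists above, also gave 0 calls by either tool, with 4 of 63 pairs (6.35%) under an unadjusted p of 0.05. Their most abundant genes were Tsc22d4 (415 to 469 CPM), Klf13 (134 to 237 CPM), Fkbp4 and Sgk3 (65.5 to 78 CPM). Ddit4l and Sgk2, the nearest relatives of Ddit4 and Sgk1 on these lists, had 1 and 0 UMIs in all cells kept.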

How the data were processed

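Cells were captured with the 10X Genomics 3' version 2 kit, and the deposited matrices hold UMI counts per gene and cell. Per the labels, the authors' processing used bcl2fastq, Cell Ranger 3.0.0 and Seurat with the mouse build GRCm38 (mm10). The counts are not normalized, and the authors' own cell filters were not yet applied. Whether counting used strand is not given in the sources used here.

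Cells with at least 500 genes, 1000 UMIs and at most 10% mitochondrial UMIs were kept. Counts were summed per library and tested with edgeR 4.0.16 (R 4.3.3; quasi-likelihood, TMM, 1 model over 4 groups of 3), with DESeq2 1.42.0 as an alternative, after tests on simulated data. Shares of cells and correlations used exact permutation tests (scipy 1.17.1). Log values used a pseudocount of 1. Clustering used scanpy 1.11.5 and leidenalg 0.10.2 (2000 variable genes, 30 components, 20 neighbours, resolution 1), and clusters of at least 20 cells were named from marker lists. Doublets were not removed, and an alternative left out the 2% of cells with the highest Scrublet scores. Intervals on counts and shares cover counting error only. Replicate numbers were checked for pairing by the correlation of same-numbered deviations over 3291 genes, which was 0.22, -0.08 and 0.27 for ENZ-NONE with DNC-INHIB and -0.41, -0.32 and -0.20 for ENZ-INHIB with DNC-NONE, so they were not used as pairs.

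The members, the gene lists and the tests were chosen with earlier results of these data known. All 6 members are named, with the 3 genes most like each, and from each list every gene called and the 4 tested genes with the highest mean CPM. Other list genes named (Nr3c2, Hsd11b1, Ddit4l, Sgk2, Anxa1, Lcn2) were chosen after their values were seen. Alternatives were another tool, no filter on low counts, batch as a covariate, thinned cells, all deposited barcodes, microglia-like cells only, and each library left out in turn.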

Additional observations from a re-analysis of the deposited data

How the results depend on the processing

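Txnip stayed called against DNC-NONE and DNC-INHIB under every alternative run except without ENZ-NONE replicate 6, and its call against ENZ-INHIB was lost after thinning and without any 1 of 8 libraries, that one included. Leaving out each library gave Txnip log2 differences of 0.51 to 0.83, 0.49 to 0.80 and 0.40 to 0.71 in the 3 comparisons. Its difference of inhibitor effects (0.64) was called with no filter on low counts (adjusted p 0.0129). Signs turned only in small differences that were not called. Sgk1 in ENZ-NONE against DNC-INHIB was -0.02 after thinning, Txnip in DNC-NONE against DNC-INHIB was 0.06 with batch and 0.01 with all deposited barcodes, and the Ddit4 difference of inhibitor effects was 0.02 with DESeq2, 0.04 with batch and 0.05 with all deposited barcodes. The Sgk1 share in ENZ-NONE minus the other 9 libraries was 0.493 points without thinning and 0.303 at 500 UMIs, and in ENZ minus DNC it was 0.74 without thinning. The Klf9 share at 500 UMIs was 0.000911 points in ENZ-NONE minus the others and 0.0136 in NONE minus INHIB.

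Leaving out each library, signs turned for Tsc22d3 (-0.37 to 0.02) and Sgk1 (-0.05 to 0.13) in ENZ-NONE against DNC-INHIB, for Fkbp5 in ENZ-NONE against ENZ-INHIB (-0.17 to 0.25), for Fkbp5 (-0.77 to 0.03) and Txnip (-0.10 to 0.08) in DNC-NONE against DNC-INHIB, for Tsc22d3 (-0.38 to 0.15), Sgk1 (-0.20 to 0.06) and Ddit4 (-0.66 to 0.31) in ENZ-INHIB against DNC-NONE, and for the Ddit4 difference of inhibitor effects (-0.41 to 0.65). Shares turned for Tsc22d3 (-2.17 to 2.02) and Sgk1 (-0.829 to 0.276) in ENZ-NONE minus the others, for Klf9 in ENZ minus DNC (-0.0256 to 0.0479), and for Tsc22d3 (-2.65 to 0.264), Fkbp5 (-1.9 to 0.116) and Sgk1 (-1.03 to 0.15) in NONE minus INHIB. Without DNC-NONE replicate 2, the Fkbp5 share in ENZ minus DNC (-4.31 points) and the Txnip share in NONE minus INHIB (4.14 points) each had an adjusted p of 0.039, so 0 to 1 shares passed in each of these contrasts.

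Counts over all genes moved more. With no filter on low counts, 102, 139 and 58 genes were called in ENZ-NONE against, in turn, DNC-NONE, DNC-INHIB and then ENZ-INHIB, 18 in DNC-NONE against DNC-INHIB, 68 and 109 in ENZ-INHIB against DNC-INHIB and DNC-NONE, and 16 for the difference of inhibitor effects. DNC-NONE against DNC-INHIB gave 1 with DESeq2, with batch and with microglia-like cells. ENZ-INHIB against DNC-INHIB gave 9 with DESeq2, 36 with batch, 12 after thinning and 33 with all deposited barcodes, and against DNC-NONE it gave 6 after thinning and 27 with all deposited barcodes. The difference of inhibitor effects gave 17 with DESeq2 and 10 with batch. Leaving out each library gave 29 to 66, 45 to 89, 14 to 37, 0 to 3, 5 to 34, 1 to 46 and 4 to 10 calls in the 7 comparisons, in the same order. The cause was not tested. The replicate numbers do not pair the samples. With the number as a block, ENZ-NONE against DNC-INHIB gave 104 calls (59 without the block) and ENZ-INHIB against DNC-NONE 90 (20 without). Txnip in the first was 0.69 (edgeR adjusted p 0.000178) with the block and 0.70 (edgeR adjusted p 0.0206) without it. No call of another member changed. Klf9, with 45 UMIs, was limited by depth.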
